A study of Mus musculus with 12 samples.

Results

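The 85 genes described here had more mRNA in mouse embryonic stem cells that overexpress the histone mutant H3.1K36M and less in cells with a hairpin against Suv39h2. They were chosen by their measured values, among 23354 gene symbols measured in all 12 libraries. A member had a mean level in H3.1K36M of at least 1.5 times the H3.1WT mean, a mean in shSuv39h2 at least 1.5 times below the shNC mean, and at least 3 FPKM (fragments per kilobase of transcript, scaled to the size of the library) in the highest of these 4 means. The rule was met by 106 symbols, and 21 of them were left out because they belong to named germline and early-embryo families or sets (Rhox, Xlr, Zscan4, Mage, Pramel, Nlrp, Obox and 16 single genes such as Dazl and Mael). All cells were stable derivatives of J1, an established mouse embryonic stem cell line, kept on mouse embryonic fibroblast feeders with serum and LIF. Each of 6 lines or groups gave 2 mRNA libraries: cells overexpressing wild-type histone H3.1 (H3.1WT), H3.1K9M or H3.1K36M, and cells with the control hairpin shNC, a Suv39h1 hairpin (shSuv39h1) or a Suv39h2 hairpin (shSuv39h2). The labels do not say that the 2 libraries of a group came from separate cultures or clones. The p-values here therefore measure only the spread between such libraries, pooled over the groups of a fit.

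Histone H3 carries methyl groups on lysine 9 and lysine 36, and the marks have different places in the genome. Methylated lysine 9 marks silent chromatin, and SUV39H1 and SUV39H2 are the enzymes best known for its trimethyl form at pericentromeric and other repeats. Methylated lysine 36 is laid down across transcribed gene bodies and between genes. A histone with methionine in place of lysine is known to inhibit the enzymes for that residue, so that the mark is lowered on the other histones of the cell. Loss of lysine 9 methylation is usually linked with higher expression of silent genes, and the members went the other way in the Suv39h2 knockdown by the rule that chose them. Mouse embryonic stem cell cultures are known to contain a few cells that briefly express genes of the 2-cell embryo, many of which are multicopy genes.

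Depth and labels were checked first. Steps between the low FPKM values put the libraries at 20400000 to 26900000 fragments, so that a 2 kb transcript at 1 FPKM was seen as 40.7 to 53.9 fragments. Suv39h2, the targeted gene, had 4.80 and 4.78 FPKM in the shNC libraries and 1.61 and 1.76 in shSuv39h2. Suv39h1 had 8.58 and 7.52 FPKM in shNC and 4.91 and 5.11 in shSuv39h1. The embryonic stem cell markers Pou5f1, Sox2, Nanog and Zfp42 all reached at least 109 FPKM in every library. Their levels were not the same in all groups. Nanog had 184 and 199 FPKM in H3.1WT and 378 and 373 in H3.1K36M, where Pou5f1 went from 807 and 755 to 641 and 627. Pou5f1 had 693 and 748 FPKM in shNC and 939 and 1007 in shSuv39h2, and Nanog overlapped there. Markers of the feeder fibroblasts were also present, and their 38 genes summed to 1450 and 2340 FPKM in H3.1WT, 2780 and 2730 in H3.1K36M, 4210 and 2160 in H3.1K9M, 1700 and 2270 in shNC, 1820 and 1160 in shSuv39h1 and 2390 and 1850 in shSuv39h2. In bulk RNA, a change in the number of expressing cells and a change in RNA per cell cannot be told apart.

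Of the 85 members, 10 are small RNA genes, described at the end, and 75 are longer transcripts. Most members were low: 33 of the 75 stayed under 5 FPKM in the highest of the 4 means and 20 reached 10 FPKM. The values that chose them are given as description only. The median ratio of H3.1K36M to H3.1WT over the 75 was 1.88 and the median ratio of shNC to shSuv39h2 was 2.21. The 2 libraries of H3.1K36M lay above both H3.1WT libraries in all 75, and the 2 libraries of shSuv39h2 lay below both shNC libraries in 72. In a limma fit of log2(FPKM + 1) over 13109 genes, 42 of the 83 members tested were called higher in H3.1K36M (3.1% of all genes tested were) and 55 were called lower in shSuv39h2 (4.69% of all genes tested were). These 2 contrasts made the list, so nothing is read from those counts or from the libraries that did not overlap. The share of all genes with such libraries in these 2 contrasts was not counted. Without any 1 of the 8 libraries that the rule used, 37 of the 75 still met it.

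Near the threshold, Apobec2, Gm21293 and Dppa3 were the members closest to it in H3.1K36M, with ratios to H3.1WT of 1.5058, 1.5203 and 1.5231. Morc1, Arhgap30 and Dmkn lay just outside, at 1.4955, 1.4929 and 1.4871. In the hairpin arm, Cd80, Fgf13 and Ckb were just inside, with shNC at 1.5127, 1.5223 and 1.5224 times shSuv39h2. Lmo7, Mmrn2 and Wisp2 were just outside at 1.4998, 1.4919 and 1.4857. Genes on either side of the limits thus had nearly the same ratios.

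**Figure D1:**
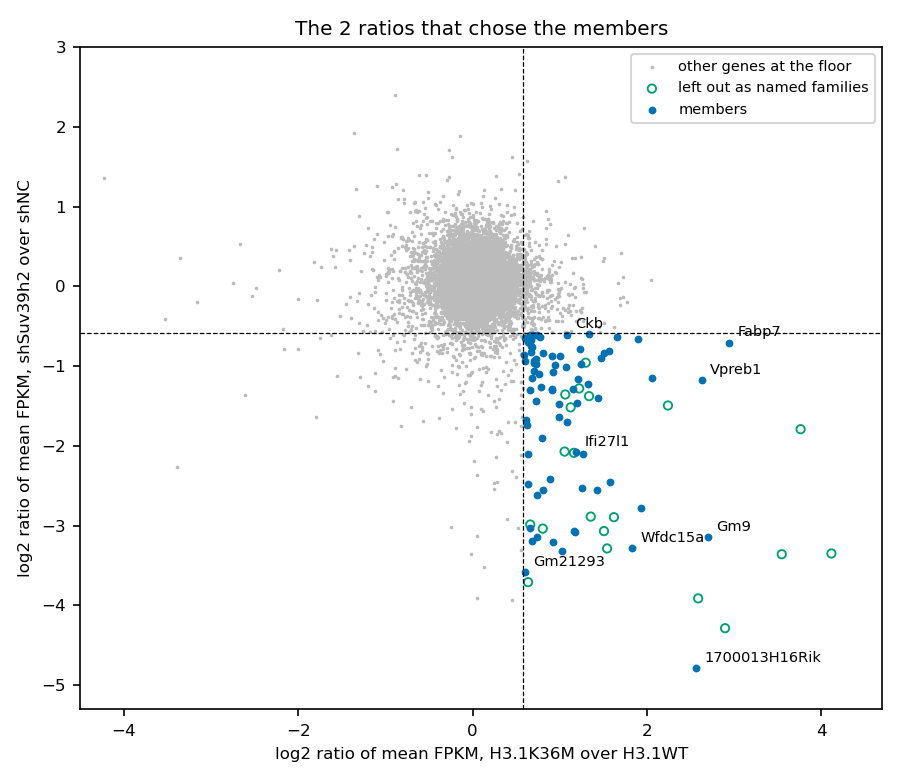
Each point is a gene with at least 3 FPKM in the highest of the 4 means the rule used. The x axis is the log2 ratio of mean FPKM in H3.1K36M over H3.1WT, the y axis that in shSuv39h2 over shNC, and the dashed lines are the 1.5-fold limits. Members (blue) fill the lower right corner by construction, together with the families left out (green rings). Genes listed at 0 in any of the 4 groups are not drawn, and 1 gene lies outside the axes.

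Several members have close relatives elsewhere in the genome. A transcript of another gene at least 90% identical over at least 80% of the length was found for 16 of the 75 (here called near-copies), among them 5 genes in a single interval of chromosome 12, from 87514316 to 88324026 on GRCm38: Gm8300, Gm2016, Gm2022, Gm5662 and Gm5039. Their transcripts resemble Eif1a, a translation initiation factor gene. Gm2016 matched an Eif1a transcript at 89.0% identity over 1013 aligned bases, and Gm2022 at 94.9% over 434 bases. Gm2016 and Gm5662 are 99.3% identical to each other, and Gm2022 is near-identical to 17 other genes. Reads can be shared among such copies, so a value belongs to the set more surely than to the single gene, and the 5 genes are not independent measurements.

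Gm5662 had 11.5 and 9.72 FPKM in H3.1WT, 4.04 and 2.33 in H3.1K9M, 16.8 and 16.7 in H3.1K36M, 6.24 and 9.68 in shNC, 5.74 and 4.62 in shSuv39h1, and 0.764 and 1.19 in shSuv39h2. No group overlapped its control, and shSuv39h2 was the lowest group of the hairpin arm. Gm2016 had 9.10 and 7.22 FPKM in H3.1WT, 3.22 and 1.74 in H3.1K9M, 13.998 and 14.6 in H3.1K36M, 5.55 and 7.54 in shNC, 5.09 and 3.63 in shSuv39h1, and 1.12 in both shSuv39h2 libraries. Gm8300 had 7.53 and 5.64 FPKM in H3.1WT, 2.64 and 1.63 in H3.1K9M, 10.7 and 11.2 in H3.1K36M, 5.79 and 7.41 in shNC, 4.63 and 3.86 in shSuv39h1, and 0.751 and 0.745 in shSuv39h2. The 3 genes thus had the same order of groups within each arm. Gm2022 (4.26 and 4.03 FPKM in H3.1WT) and Gm5039 (2.67 and 2.76) were lower but followed the same order.

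Each arm has 1 comparison that the rule did not use, and these were tested. Both share a control with the rule: the rule favoured genes low in H3.1WT, against which a further fall in H3.1K9M has to run, and genes high in shNC, which favours a fall in shSuv39h1. In H3.1K9M, 8 members fell and none rose by limma with Benjamini-Hochberg adjustment over the 13109 genes, 9.64% of the 83 members tested, where 0.29% of all genes tested were called lower and 0.0229% higher. At an unadjusted p under 0.05, 25 members were lower and 3 higher, where 6.22% of all genes tested were lower and 4.96% higher. The 8 members are 1700013H16Rik, H2bfm, AF067061, Gm8300, Gm2022, Gm2016, Gm5662 and Gm21293, and 6 of them are near-copies. Gm8300, Gm2022, Gm2016 and Gm5662 lie in the chromosome 12 interval and can share reads, so the 8 calls are not independent. Gm5662 fell by 1.5 on the log2(FPKM + 1) scale (SE 0.228, adjusted p = 0.0313 in limma), and Gm2016 by 1.42 (SE 0.216, adjusted p = 0.0313). Gm8300 fell by 1.28 (SE 0.179, adjusted p = 0.0227) and Gm2022 by 1.11 (SE 0.161, adjusted p = 0.0259). Gm5039 was at 40.7% of its H3.1WT mean and was not called (adjusted p = 0.184). The calls depended on the H3.1WT libraries: without replicate 1 only 1700013H16Rik was still called, and without replicate 2 none of the 8 was, while 2410076I21Rik was. In a fit of the 3 overexpression groups alone, no member was called, and of all genes tested 2 were called lower and none higher. At an unadjusted p under 0.05, 27 members were lower and 2 higher there, where 9.78% of all genes tested differed in either direction. The direction was the same in every one of these fits. Each fit gave a gene 1 spread for all its groups, and the groups were not equally spread. For Gm5662 the standard deviation of the 2 libraries was 0.0928 FPKM in H3.1K36M, 1.26 in H3.1WT and 1.21 in H3.1K9M. For 1700013H16Rik it was 0.572, 0.508 and 0.109. What this did to the calls was not tested.

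**Figure D2:**
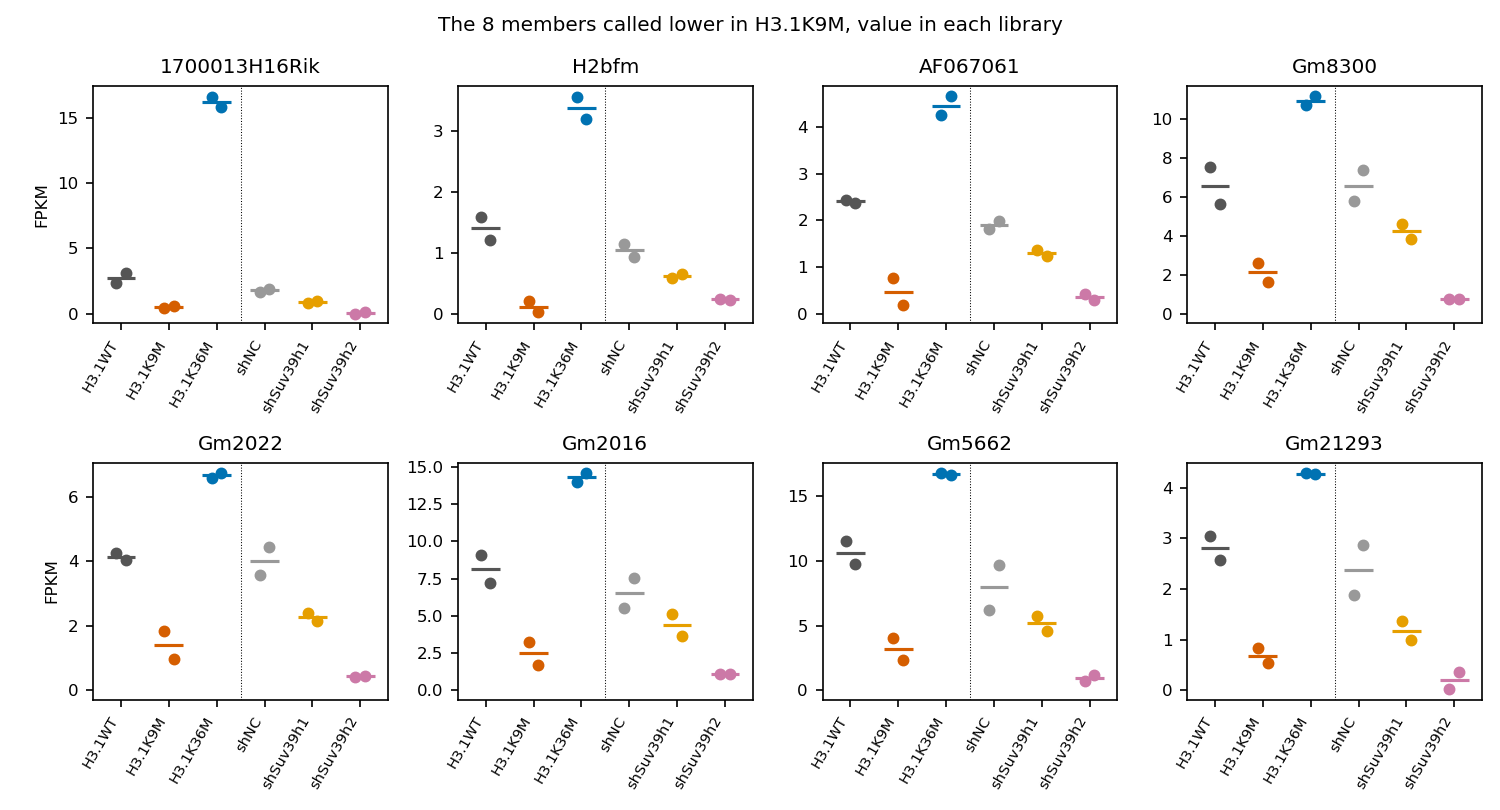
FPKM (y axis, from 0) in each library of the 6 groups (x axis) for the 8 members called lower in H3.1K9M; points are libraries and bars are means of 2. In each of the 8, both H3.1K9M libraries lie below both H3.1WT libraries, and shSuv39h1 lies between shNC and shSuv39h2.

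AF067061 and Gm20767 lie together on chromosome 13, between 120140246 and 120264517. The AF067061 transcript is 91.9% identical to that of Tcstv1, a 2-cell-embryo gene, and Gm20767 is 98.4% identical to Gm21761. AF067061 had 2.43 and 2.38 FPKM in H3.1WT, 0.769 and 0.189 in H3.1K9M, 4.26 and 4.65 in H3.1K36M, 1.81 and 1.98 in shNC, 1.36 and 1.23 in shSuv39h1, and 0.417 and 0.294 in shSuv39h2. It fell by 1.23 on the log2(FPKM + 1) scale in H3.1K9M (SE 0.165, adjusted p = 0.0227 in limma). Gm20767 had 2.05 and 2.82 FPKM in H3.1WT, 7.44 and 7.08 in H3.1K36M, 2.23 and 3.94 in shNC and 0.466 and 0.657 in shSuv39h2. Its H3.1K9M libraries, at 1.204 and 0.923 FPKM, lay below both H3.1WT libraries but it was not called (adjusted p = 0.229).

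Gm21293 on chromosome 10 has 6 near-identical genes in the annotation, and 3 of them, Gm21304, Gm21312 and Gm4340, were listed at 0 in every group. It had 3.04 and 2.57 FPKM in H3.1WT, 0.828 and 0.540 in H3.1K9M, 4.28 and 4.26 in H3.1K36M, 1.89 and 2.86 in shNC, 1.38 and 0.986 in shSuv39h1, and 0.035 and 0.362 in shSuv39h2. It fell by 1.18 on the log2(FPKM + 1) scale in H3.1K9M (SE 0.183, adjusted p = 0.0333 in limma). Gm8994, named Eif4a3l1 in RefSeq after its resemblance to the RNA helicase gene Eif4a3, had 9.47 and 6.72 FPKM in H3.1WT, 4.75 and 2.27 in H3.1K9M, 18.3 and 17.9 in H3.1K36M, 5.89 and 7.85 in shNC, 4.64 and 3.02 in shSuv39h1, and 0.887 and 0.759 in shSuv39h2. The groups did not overlap their controls, and the H3.1K9M difference did not pass the test (adjusted p = 0.214).

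The transcripts of Gm21293 and Gm8994 come from different chromosomes, yet their promoter windows are alike. RefSeq windows of 300 bases, from 250 before to 50 after the start, were compared among the 55 members that have one. The 2 windows aligned over most of their length, at 80.7% identity in 305 alignment columns with 246 identical bases, and a stretch of 66 columns of AF067061 matched Gm21293 at 80.3%, with 68 columns matching Gm8994 at 76.5%. No other pair of members aligned over at least 60 columns. The windows are shown 5′ to 3′ for Gm21293 (GRCm38.p6, chr10:104142737-104143036, plus strand), Gm8994 (chr6:136327289-136327588, plus strand) and AF067061 (chr13:120262845-120263144, plus strand). Capitals mark bases identical to the partner in the alignment, which is Gm8994 for the first and Gm21293 for the other two.
Gm21293: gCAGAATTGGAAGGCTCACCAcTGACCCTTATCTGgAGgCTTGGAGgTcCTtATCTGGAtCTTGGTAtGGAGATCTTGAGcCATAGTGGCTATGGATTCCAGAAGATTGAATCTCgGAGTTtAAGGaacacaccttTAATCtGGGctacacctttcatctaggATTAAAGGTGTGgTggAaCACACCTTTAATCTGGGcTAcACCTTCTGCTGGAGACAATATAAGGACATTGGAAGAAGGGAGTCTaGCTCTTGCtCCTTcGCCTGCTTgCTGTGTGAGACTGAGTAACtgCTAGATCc
Gm8994: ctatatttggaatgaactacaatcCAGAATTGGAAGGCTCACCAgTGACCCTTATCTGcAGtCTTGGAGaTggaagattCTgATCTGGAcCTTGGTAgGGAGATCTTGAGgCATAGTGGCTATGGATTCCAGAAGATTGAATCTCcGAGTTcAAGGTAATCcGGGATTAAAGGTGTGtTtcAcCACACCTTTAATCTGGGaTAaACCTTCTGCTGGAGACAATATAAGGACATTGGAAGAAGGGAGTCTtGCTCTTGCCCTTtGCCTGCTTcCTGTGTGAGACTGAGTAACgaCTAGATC
AF067061: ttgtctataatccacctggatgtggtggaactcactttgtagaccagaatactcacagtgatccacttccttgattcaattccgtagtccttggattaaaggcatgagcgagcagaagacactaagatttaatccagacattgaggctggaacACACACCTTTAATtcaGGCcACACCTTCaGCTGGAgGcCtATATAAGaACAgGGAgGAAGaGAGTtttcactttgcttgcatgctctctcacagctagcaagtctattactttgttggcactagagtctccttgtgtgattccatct
Runs of capitals are spread along most of the first pair. Among 27025 promoter windows searched, 19 others aligned with Gm21293 over at least 100 columns at 80% identity or more, and Gm8994 was the only other member. Of the 19, 6 were measured and 2 of those reached 1 FPKM in a group mean. Those 2 were Gm8994 and Pemt, a phospholipid methyltransferase gene whose window was 96.6% identical. Pemt had group means of 5.29 FPKM in H3.1WT, 5.25 in H3.1K9M, 4.29 in H3.1K36M, 5.08 in shNC, 5.21 in shSuv39h1 and 3.35 in shSuv39h2, so it met the shSuv39h2 condition of the rule (shNC at 1.52 times shSuv39h2) but not the H3.1K36M condition (0.812 times H3.1WT). Only 1 window per gene was used, and which start site these cells use was not measured.

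Over all 16 near-copies, both H3.1K9M libraries lay below both H3.1WT libraries, and the median level in H3.1K9M was 38.9% of H3.1WT. In the 59 members that are neither near-copies nor small RNA genes, this was so for 22, and the median was 88.4%. For comparison, 20.6% of all genes tested had both H3.1K9M libraries below both controls, and 45.8% of the 83 members did. The split into near-copies and the rest was made after the values were known and was not tested. In shSuv39h1 the medians were 64.8% of shNC for near-copies and 76.8% for the 59 others. The remaining near-copies are Aurkc, Oas1g, Gm4971, Gm12794 (Pramel19 in RefSeq, kept by the rule under its older symbol), Gm14511 (Fthl17c in RefSeq), Gm9112 and 2210409E12Rik.

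**Figure D3:**
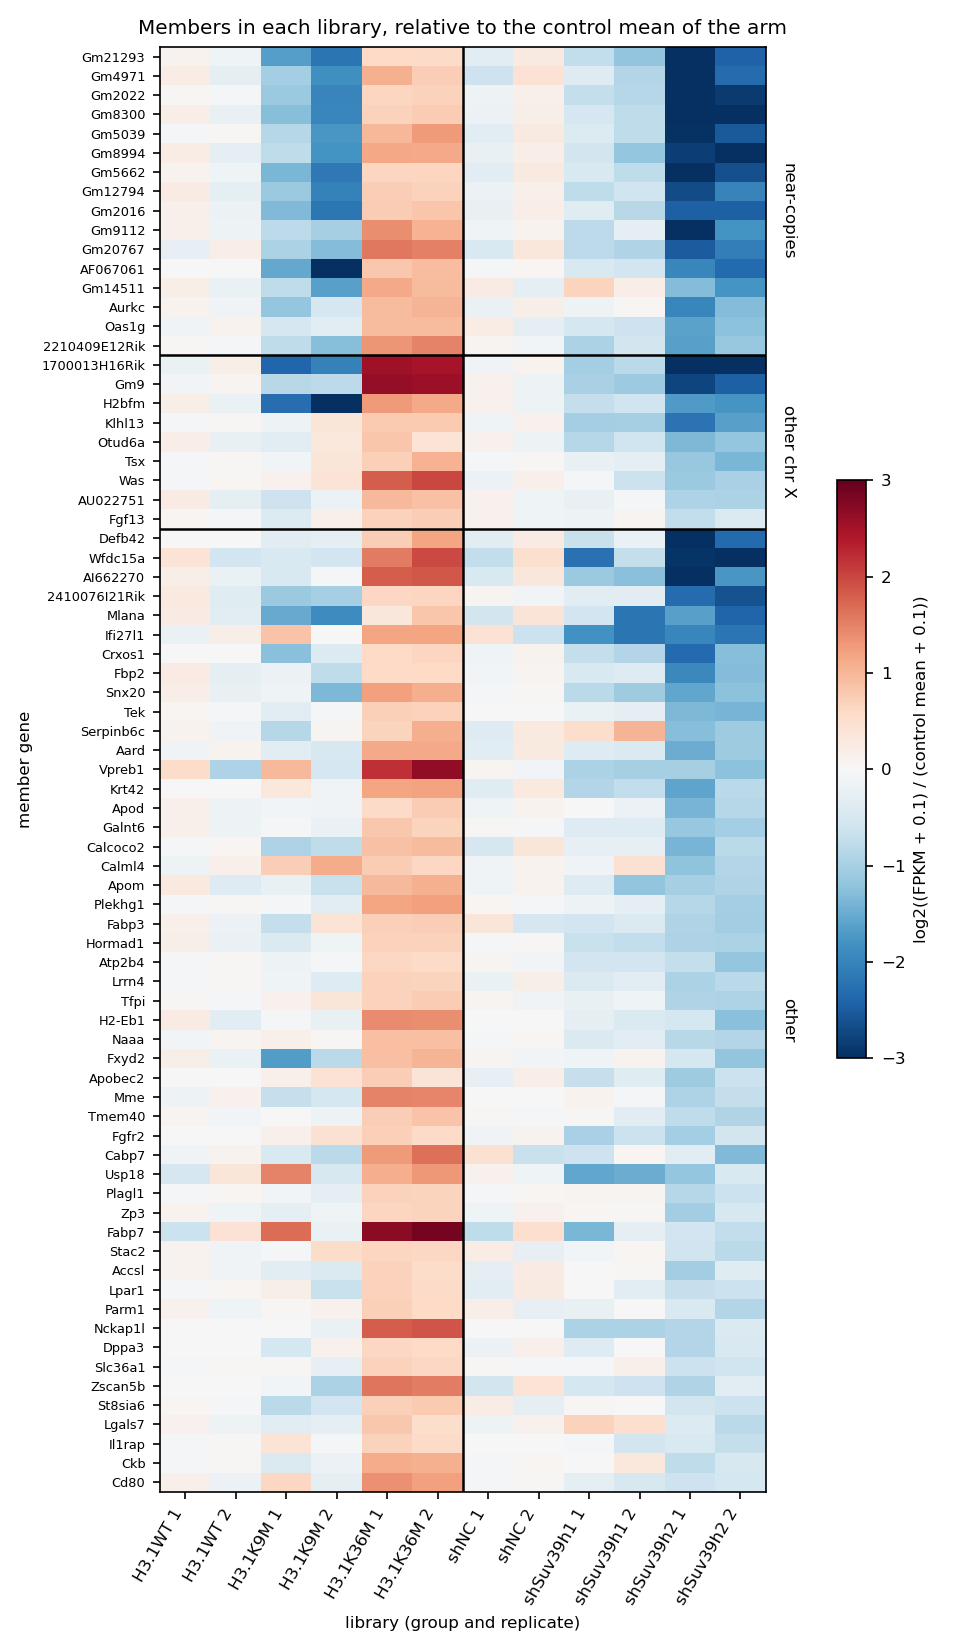
Each row is 1 of the 75 members other than small RNA genes and each column a library; colour is log2 of (FPKM + 0.1) over (the arm's control mean + 0.1), capped at -3 and 3. Rows are near-copies, other genes of chromosome X and the rest, ordered within each block by the ratio of shSuv39h2 to shNC. The H3.1K36M columns are red and the shSuv39h2 columns blue by the rule; the H3.1K9M columns are blue throughout the 16 near-copies and mixed below them.

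Chromosome X held 12 members, 14.1% of the 85, where it held 3.48% of the 10456 placed symbols at the same floor and 3.26% after the named families were left out. The J1 line is male, so these genes have a single X. The 2 members furthest beyond both limits of the rule, Gm9 and 1700013H16Rik, were on this chromosome. 1700013H16Rik, for which RefSeq lists Slx2 and Xlr6 as synonyms and which therefore relates to a family the rule set aside, had 2.38 and 3.1 FPKM in H3.1WT and 16.6 and 15.8 in H3.1K36M. It had 1.67 and 1.94 FPKM in shNC, 0.837 and 0.980 in shSuv39h1, and 0.000 and 0.131 in shSuv39h2, where only a few fragments remain. In H3.1K9M it had 0.446 and 0.6 FPKM, a fall of 1.29 on the log2(FPKM + 1) scale (SE 0.128, adjusted p = 0.0102 in limma), which was the smallest p of any member.

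Gm9 had 1.03 and 1.17 FPKM in H3.1WT, 0.578 and 0.598 in H3.1K9M, 7.36 and 7.00 in H3.1K36M, 1.73 and 1.41 in shNC, 0.748 and 0.688 in shSuv39h1, and 0.147 and 0.207 in shSuv39h2. All 4 perturbed groups were clear of their controls, but the falls in H3.1K9M and shSuv39h1 did not pass the test (adjusted p = 0.227 and 0.0885 in limma). H2bfm, an X-linked variant of histone H2B, had 1.59 and 1.21 FPKM in H3.1WT, 0.206 and 0.038 in H3.1K9M, 3.56 and 3.20 in H3.1K36M, 1.15 and 0.933 in shNC, 0.595 and 0.660 in shSuv39h1, and 0.252 and 0.236 in shSuv39h2. It fell by 1.10 in H3.1K9M on the log2(FPKM + 1) scale (SE 0.127, adjusted p = 0.0160 in limma), to 8.71% of the H3.1WT mean. A level of 0.038 FPKM rests on very few fragments. Klhl13, a substrate adaptor of a ubiquitin ligase, was the most abundant X-linked member, with 36.1 and 38.3 FPKM in H3.1WT, 64.7 and 64.4 in H3.1K36M, 56.5 and 67.7 in shNC, 30.4 and 31.1 in shSuv39h1, and 13.3 and 19.97 in shSuv39h2. Its H3.1K9M libraries, at 33.5 and 47.6 FPKM, spread around H3.1WT. The other X-linked members other than small RNA genes are Was, Tsx, Otud6a, Fgf13, AU022751 (Ezhip in RefSeq, an inhibitor of the H3K27 methyltransferase), Gm14511 and Gm9112.

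A promoter window was available for all 11 of these X-linked genes. The CCAAT box, searched as CCAAT on both strands, was present in 9 of the 11, or 81.8%, against 34.1% of 44 windows of members elsewhere, 50.9% of 287 windows of other X-linked symbols at the floor and 37.9% of all 27025. Over all 55 member windows it was present in 43.6%, against 39.7% of other symbols at the floor. Several other motifs were searched in the same windows, and only the CCAAT box was split by chromosome. The split was thus picked among them, rests on 11 windows and was not tested. The RefSeq window of Fgf13 (59585523 to 59585822) lies outside its GENCODE gene (59062145 to 59568071). Gm9 had 5 copies, and 77 of all windows (0.285%) had 5 or more. H2bfm and Gm14511 had 3 each, where 8.01% of windows of other X-linked symbols at the floor and 3.56% of all windows had 3 or more. These matches describe letters, not binding. The windows follow 5′ to 3′ with CCAAT, or its reverse complement, in capitals, for Gm9 (GRCm38.p6, chrX:37210992-37211291, minus strand), H2bfm (chrX:136927075-136927374, plus strand) and Gm14511 (chrX:8976510-8976809, minus strand).
Gm9: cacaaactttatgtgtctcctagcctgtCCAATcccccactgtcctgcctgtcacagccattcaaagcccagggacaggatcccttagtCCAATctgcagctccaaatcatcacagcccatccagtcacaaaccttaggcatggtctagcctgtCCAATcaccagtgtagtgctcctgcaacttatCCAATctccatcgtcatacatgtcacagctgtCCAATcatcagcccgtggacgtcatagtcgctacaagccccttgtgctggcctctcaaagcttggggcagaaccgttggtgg
H2bfm: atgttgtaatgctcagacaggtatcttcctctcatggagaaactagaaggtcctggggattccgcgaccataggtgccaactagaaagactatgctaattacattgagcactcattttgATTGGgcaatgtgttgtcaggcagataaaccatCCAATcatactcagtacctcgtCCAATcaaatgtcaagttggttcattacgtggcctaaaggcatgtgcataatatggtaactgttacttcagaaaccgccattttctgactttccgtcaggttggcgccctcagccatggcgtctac
Gm14511: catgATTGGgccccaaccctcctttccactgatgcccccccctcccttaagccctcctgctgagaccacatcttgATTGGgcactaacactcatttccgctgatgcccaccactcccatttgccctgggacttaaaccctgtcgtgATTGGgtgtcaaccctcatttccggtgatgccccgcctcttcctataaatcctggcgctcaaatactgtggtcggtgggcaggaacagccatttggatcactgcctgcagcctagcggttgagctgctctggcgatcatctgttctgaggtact
In Gm9 the 5 copies all read in the direction of transcription, and in Gm14511 all 3 read against it. The levels of these 3 genes in H3.1K9M differ in the size of the difference from H3.1WT: Gm9 was at 53.4% of the H3.1WT mean, Gm14511 at 42.9% and H2bfm at 8.71%.

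Genes of germ cells and of the egg and early embryo made up another group. Dppa3, which protects the maternal genome from demethylation in the zygote, had 55.9 and 54.5 FPKM in H3.1WT, 38.3 and 60.8 in H3.1K9M, 85.3 and 82.9 in H3.1K36M, 30.5 and 38.7 in shNC, 26.3 and 34.2 in shSuv39h1, and 18.7 and 25.2 in shSuv39h2. The shSuv39h1 libraries overlapped shNC, and Dppa3 was called neither there (adjusted p = 0.814 in limma) nor in H3.1K9M (adjusted p = 0.762). 2410076I21Rik, named Rec114 in RefSeq and needed for meiotic DNA breaks, had 19.2 and 12.03 FPKM in H3.1WT, 7.11 and 7.81 in H3.1K9M, 23.9 and 24.6 in H3.1K36M, 23.3 and 21.04 in shNC, 17.5 and 17.8 in shSuv39h1, and 4.42 and 3.57 in shSuv39h2. It was the member next in line in H3.1K9M (log2 difference -0.94, SE 0.174, adjusted p = 0.074). Hormad1, a protein of the meiotic chromosome axis, had 7.25 and 7.61 FPKM in shNC, 4.65 and 4.39 in shSuv39h1 and 3.85 and 3.79 in shSuv39h2.

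Aurkc, the Aurora kinase of oocytes and spermatocytes, had 6.80 and 5.92 FPKM in H3.1WT, 2.81 and 4.43 in H3.1K9M, 12.4 and 12.9 in H3.1K36M, 4.56 and 5.92 in shNC, 4.7 and 5.39 in shSuv39h1, and 1.28 and 2.08 in shSuv39h2. Its shSuv39h1 values lay inside the range of shNC. Zp3 encodes an egg coat protein, and its levels ran from 2.94 FPKM in a shSuv39h2 library to 6.80 in an H3.1K36M library. Crxos1, a homeobox gene, had 7.90 and 8.05 FPKM in H3.1WT, 3.28 and 5.96 in H3.1K9M, 8.79 and 10.4 in shNC, 5.84 and 5.14 in shSuv39h1 and 1.81 and 3.94 in shSuv39h2. In a list of 39 germ cell and meiotic genes, 1 is a member, Hormad1. Of its 32 tested genes, 3 were called higher and none lower in H3.1K36M, where their median log2 difference was -0.03. In shSuv39h2, 8 were called lower and 2 higher, and 1 was called lower in H3.1K9M. Of all 13109 genes tested, 406 (3.1%) were called higher and 228 lower in H3.1K36M. In shSuv39h2, 615 of them (4.69%) were called lower and 701 higher, and in H3.1K9M 38 (0.29%) were called lower. In a list of 20 genes of the 2-cell-like state, none is a member, and of 7 tested none was called in H3.1K36M and 5 were called lower and none higher in shSuv39h2. The median log2 difference of these 7 was 0.33 in H3.1K36M and -0.74 in shSuv39h2, the directions of the rule.

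Immune and interferon genes were also found. Ifi27l1, an interferon-inducible gene named Ifi27 in RefSeq, had 10.7 and 13.9 FPKM in H3.1WT, 22.4 and 12.2 in H3.1K9M, 28.0 in both H3.1K36M libraries, 62.6 and 29.5 in shNC, 13.1 and 10.0 in shSuv39h1, and 11.79 and 10.1 in shSuv39h2. The shNC libraries differ more than 2-fold, and all 4 knockdown libraries lie under both. The fall in shSuv39h1 did not pass the test (log2 difference -1.82, adjusted p = 0.0885 in limma), and passed without shNC replicate 2 (-2.35, adjusted p = 0.0389). Usp18, which removes the interferon-induced modifier ISG15, had 6.05 and 5.05 FPKM in shNC, 1.82 and 1.92 in shSuv39h1 and 2.42 and 4.03 in shSuv39h2. Its libraries were far apart in H3.1WT (1.80 and 3.37 FPKM) and in H3.1K9M (7.43 and 1.82). Oas1g, a sensor of double-stranded RNA 97.6% identical to Oas1a, ran from 1.06 FPKM in shSuv39h2 to 4.04 in shNC. In a list of 36 interferon response genes, 32 were tested. Of these, 1 was called higher and 3 lower in H3.1K36M, 8 were called lower and none higher in shSuv39h2, and none was called in H3.1K9M or shSuv39h1. Of all 13109 genes tested, 406 (3.1%) were called higher and 228 lower in H3.1K36M, and 615 (4.69%) lower and 701 higher in shSuv39h2. In H3.1K9M 38 were called lower and 3 higher, and in shSuv39h1 8 lower and 11 higher.

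Nckap1l, an actin regulator of blood cells, had 1.68 and 1.71 FPKM in H3.1WT, 1.66 and 1.47 in H3.1K9M, 6.17 and 6.48 in H3.1K36M, 3.36 and 3.37 in shNC, 1.71 and 1.69 in shSuv39h1, and 1.79 and 2.47 in shSuv39h2. Both hairpins were clear of shNC, and the shSuv39h1 difference had the smallest p of any member there (log2 difference -0.70, SE 0.115, adjusted p = 0.0642 in limma). Vpreb1, a surrogate light chain of pre-B cells, had 0.946 and 0.277 FPKM in H3.1WT, 3.16 and 4.42 in H3.1K36M, 2.31 and 2.08 in shNC and 1.06 and 0.878 in shSuv39h2. Was, the actin regulator mutated in Wiskott-Aldrich syndrome, had 0.698 and 0.757 FPKM in H3.1WT, 2.84 and 3.24 in H3.1K36M, 1.34 and 1.70 in shNC and 0.644 and 0.729 in shSuv39h2. Snx20, Cd80, H2-Eb1 and Il1rap are of the same kind. The leukocyte marker Ptprc stayed between 0.054 and 0.182 FPKM in all libraries. Across the 10 immune and interferon members, a grouping made after the values were known, both shSuv39h1 libraries lay below both shNC libraries in 9, where 12.7% of all genes tested and 55.4% of the members tested did. In H3.1K9M both libraries lay below both H3.1WT libraries in 2 of these 10, where 20.6% of all genes tested did. Their median level there was 118% of H3.1WT.

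Among the most abundant members, Ckb, brain-type creatine kinase, had 139 and 148 FPKM in H3.1WT, 107 and 128 in H3.1K9M, 309 and 301 in H3.1K36M, 165 and 179 in shNC, 173 and 214 in shSuv39h1, and 102 and 124 in shSuv39h2. It was not below shNC in shSuv39h1. Fabp3, a fatty-acid-binding protein, had 84.5 and 66.7 FPKM in H3.1WT, 46.4 and 100.1 in H3.1K9M, 125 and 126 in H3.1K36M, 140 and 75.9 in shNC, 72.9 and 79.6 in shSuv39h1, and 57.6 and 52.7 in shSuv39h2. Its shNC libraries are almost 2-fold apart. Tfpi, an inhibitor of coagulation, Calcoco2, an autophagy receptor, and Krt42, a keratin, ran from 18.5 to 42.0 FPKM, from 9.17 to 36.6 and from 8.48 to 31.6 over the 12 libraries.

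Of the single-copy named genes, Wfdc15a, a whey-acidic-protein domain gene, was furthest from both limits, with 3.81 and 1.89 FPKM in H3.1WT, 8.63 and 11.6 in H3.1K36M, 2.19 and 5.19 in shNC, 0.707 and 2.19 in shSuv39h1, and 0.389 and 0.367 in shSuv39h2. Fabp7, the brain fatty-acid-binding protein, had the highest H3.1K36M ratio, 7.68, with 0.478 and 1.12 FPKM in H3.1WT and 5.80 and 6.49 in H3.1K36M. In the hairpin arm it was variable, at 0.979 and 2.51 FPKM in shNC and 1.13 and 1.01 in shSuv39h2, which overlap. Defb42, a defensin, had 1.93 and 2.91 FPKM in shNC and 0.085 and 0.399 in shSuv39h2. Apom and Apod, lipid-carrying lipocalins, had means 2.02 and 2.21 times higher in shNC than in shSuv39h2. Fgfr2, an FGF receptor, Tek, the angiopoietin receptor, and Plagl1, an imprinted zinc-finger gene, had H3.1K36M means 1.59, 1.66 and 1.61 times those of H3.1WT. Aard stood at 23.6 and 23.7 FPKM in H3.1K36M against 9.86 and 11.5 in H3.1WT.

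Some members stood apart from the rest in the comparisons that the rule did not use. In H3.1K9M, the highest ratios to H3.1WT among named genes were those of Fabp7 (217%), Calml4 (195%) and Usp18 (179%). None was called in the fit of all 12 libraries. Without H3.1K9M replicate 2, Usp18 stood 1.27 above H3.1WT on the log2(FPKM + 1) scale. Calml4, a calmodulin-like gene, had 2.86 and 3.54 FPKM in H3.1WT and 5.38 and 7.07 in H3.1K9M. The lowest were H2bfm, Mlana (27.7%) and Fxyd2 (41.2%). In shSuv39h1, Serpinb6c (180%), Lgals7 (154%) and Calml4 (116%) stood highest against shNC, and Ifi27l1 (25%), Usp18 (33.7%) and Wfdc15a (39.3%) lowest. No member was called in shSuv39h1 by limma, where 0.061% of all genes tested were called lower and 0.0839% higher. At an unadjusted p under 0.05, 32 members were lower and 2 higher, where 2.8% of all genes tested were lower and 7.76% higher.

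Over the 83 members tested, the median log2 difference in H3.1K9M was -0.19 and that of all genes tested -0.01. In shSuv39h1 it was -0.32, against 0.042. Both shSuv39h1 libraries lay below both shNC libraries in 55.4% of the 83 members, where 12.7% of all genes tested did. Of the 75 members other than small RNA genes, the shSuv39h1 mean lay between the means of shSuv39h2 and shNC in 60, above shNC in 11 and below shSuv39h2 in 4. The H3.1K9M mean was below the H3.1WT mean in 57 of the 75 and above the H3.1K36M mean in 1. The selection on high shNC values bears on the shSuv39h1 figures, and its part was not tested.

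**Figure D4:**
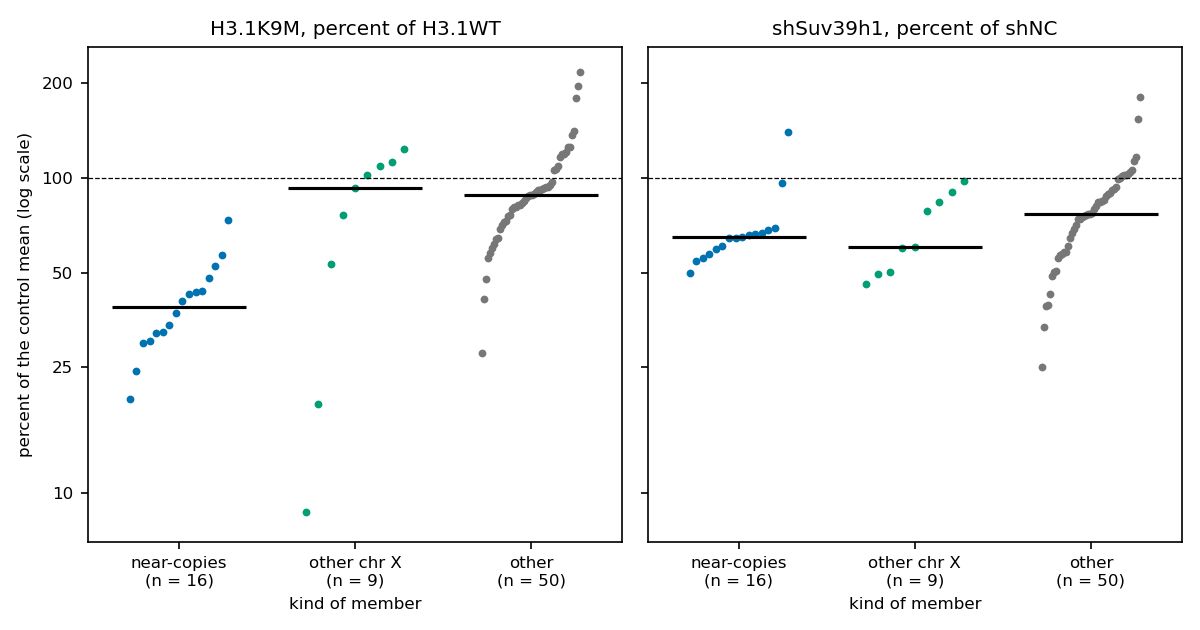
Each point is a member, placed by its mean level as a percent of the control mean (log axis), in H3.1K9M against H3.1WT (left) and shSuv39h1 against shNC (right); bars are medians and the dashed line is 100%. All 16 near-copies lie under the line at left with a median of 38.9%, and the other members lie on both sides of it.

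Promoter windows of the members held few CpG dinucleotides. The 55 members with a RefSeq window had a median of 6 CpG in 300 bases, against 22 in 7803 other symbols at the same floor outside the named families and 7 in all 27025 windows. At most 6 CpG were found in 54.5% of member windows, in 7.09% of those other symbols and in 47.7% of all windows. Among genes with under 10 FPKM in the highest of the 4 means, the shares were 55.8% of 43 member windows and 10.3% of 2761 others. Genes that met only the H3.1K36M condition had 6 or fewer CpG in 20.4% of 216 windows, and genes that met only the shSuv39h2 condition in 23.3% of 202. Members off chromosome X gave 56.8% of 44 windows. Accsl and H2-Eb1 had none, and St8sia6 had 39. The windows follow RefSeq, and some do not lie at the gene's start in GENCODE. The Accsl window (93930433 to 93930732) lies outside its GENCODE gene (93855361 to 93869157). Those of Plekhg1, Mme and Atp2b4 lie well inside their genes. Such windows were kept in the shares, and which start site these cells use was not measured. The GC box (GGGCGG, both strands) was present in 32.7% of member windows, 68.7% of 7840 windows of other symbols at the floor, families included, and 35.9% of all windows, and the TATA box (TATAAA, both strands) in 14.5%, 6.47% and 14.2%. The window sequences were not used by the rule, the 30 members with no window were not counted, and these shares were not tested.

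**Figure D5:**
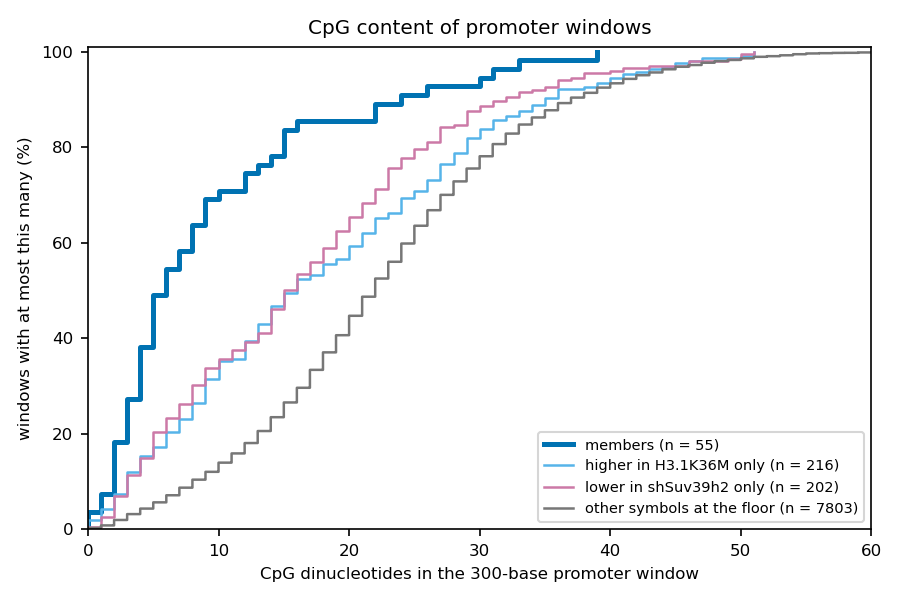
The share of 300-base promoter windows (y axis, percent) with at most the number of CpG dinucleotides on the x axis, for 55 members, genes that met only 1 of the 2 conditions (216 and 202 windows) and 7803 other symbols at the floor. The curve of the members rises first, to 54.5% at 6 CpG, and the curves of the 2 single conditions lie between it and the rest. Windows are those of RefSeq, and some do not lie at the gene's start in GENCODE.

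Small RNA genes need separate reading. The 10 are Snora3, Snora15, Snora26, Snora69, Snora75, Snord15b, Snord83b, Scarna8, Rnu12 and Gm12238, which are short transcripts, and their values jumped between libraries of a group. Snord83b was listed at 3737 FPKM in shNC replicate 2 and at 0 in the other 11 libraries. Snora15 was listed at 849 FPKM in shNC replicate 2, 108 in H3.1K36M replicate 2, 105 in shSuv39h1 replicate 1 and 0 elsewhere. Rnu12, Scarna8, Snora69, Snora75 and Snord83b were at 0 in both groups of 1 of the 2 contrasts, which the rule as written counts as met. None of the 10 had libraries clear of each other in both contrasts of the rule.

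No gene of the feeder marker list is a member. The feeder marker mean on the log2(FPKM + 1) scale was 3.9 and 4.59 in H3.1WT and 4.96 in both H3.1K36M libraries, and 4.12 and 4.58 in shNC against 4.5 and 4.27 in shSuv39h2. With that mean as a covariate, 35 members were called higher in H3.1K36M, 64 lower in shSuv39h2 and 7 lower in H3.1K9M. Among all 13109 genes tested, that fit called 345, 957 and 24 in these directions, where the main fit called 406, 615 and 38. The median log2 difference of the 37 feeder markers tested was 0.72 in H3.1K36M and 0.08 in shSuv39h2. The 17 measured blood genes summed to 56.4 and 51.8 FPKM in H3.1WT, 42.6 and 44.2 in H3.1K36M, 61.0 and 54.8 in shNC and 34.9 and 36.8 in shSuv39h2.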

How the data were processed

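mRNA libraries were sequenced from 12 samples, 2 in each of 6 groups. The authors deposited FPKM per gene symbol. TopHat2 (2.0.13), Cuffdiff (2.2.1) and the build mm10 are listed in the submitters' processing notes, which do not say what each did or whether both arms were normalized together, so levels were compared within an arm only. The files hold no counts. Fragment numbers were inferred from the spacing of low FPKM values in 553 genes, of which 97.0% were whole within 0.05 (10% are with no steps). Values were used as deposited. limma 3.58.1 in R 4.3.3 was fitted to log2(FPKM + 1) of the 13109 genes that reached 1 FPKM in 2 or more libraries, with a mean per group over all 12 libraries and 6 residual degrees of freedom. Fold changes on this scale understate those of low genes. p-values are two-sided with Benjamini-Hochberg adjustment over all genes tested, at 0.05. The fit was tested on simulated data. Positions are from GENCODE M21, promoters from RefSeq (GRCm38.p6) and near-copies from blastn 2.17.0. The members, lists and named genes were chosen with earlier results of these data known. Named genes were the 12 strongest members with library values clear of each other, the 8 most abundant, members called in H3.1K9M or shSuv39h1, list members, those at the threshold and the 3 most extreme ratios per direction. Gm-numbered and Rik members outside the rule were named after their values were seen. Alternatives were other pseudocounts, filters, scalings and sets of groups, a replicate block, a feeder covariate and leaving out each library.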

Additional observations from a re-analysis of the deposited data

How the results depend on the processing

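The number of members depended most on the floor and the fold. The rule chose 192 genes with a floor of 1 FPKM, 29 with a floor of 10 FPKM, 28 at a fold of 2 and 47 with a pseudocount of 1 added to each mean. Scaling changed it less, to 83 (median-of-ratios) and 75 (quantile), of which 76 and 68 were among the 85. Without any one library the rule chose 78 to 95 genes. Members called in H3.1K9M numbered 5 with a pseudocount of 0.1, 2 with no filter, 4 with a filter of 5 FPKM and 0 in a fit of the 3 groups of the arm, and 1 to 12 without each of the libraries. No member was called in shSuv39h1 under any setting that kept both libraries of each group. In the main fit 0.061% of all genes tested were called lower there and 0.0839% higher. Of the members called higher in H3.1K36M, 42 became 21 with no filter, 20 with a filter of 5 FPKM and 21 in the fit of the arm, and 11 to 19 without each library, a fit with fewer samples. Those called lower in shSuv39h2 became 33 with a filter of 5 FPKM, which tests fewer genes, and 29 to 46 without each library, with the lowest number without shSuv39h2 replicate 1. Where not said, the cause was not tested. None of the 8 members called in H3.1K9M changed direction under any setting. Same-numbered libraries deviated together in some pairs of groups and not in others, with correlations from -0.384 to 0.517 (0.383 for shSuv39h2 and shNC, -0.0192 for H3.1K36M and H3.1WT), so the numbers were not taken to pair libraries. A replicate block gave 6 calls of members in H3.1K9M, 40 in H3.1K36M, 56 in shSuv39h2 and 0 in shSuv39h1. Over all genes tested it called 35 lower in H3.1K9M, 389 higher in H3.1K36M and 608 lower in shSuv39h2. Crossing the numbers in the block was chosen after seeing the data, as was leaving out small RNA genes. The crossed block called 9 members in H3.1K9M, where 40 of all genes were called lower, and 0 members in shSuv39h1. Depth limits the lowest values most. A 2 kb transcript at 1 FPKM was seen as 40.7 to 53.9 fragments, and lower or shorter ones as fewer.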
